A study of Homo sapiens with 7 samples.

Results

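The comparison described here sets 1 RNA-seq library from SNU398 cells given the peptide PEN-FFW against 1 library from cells given PEN, the carrier peptide penetratin without cargo. Genes whose normalized counts averaged 50 or more across the 4 libraries of the experiment were taken, which kept 12578 of the 23710 genes listed. SNU398 is an established human hepatocellular carcinoma line that expresses the transcription factor SALL4. Its cells in every library were grown in RPMI medium with fetal bovine serum, received 30 µM of their peptide and were harvested after 8 h. The other libraries of the experiment, 1 each, came from cells given PEN-WT or PEN-MUT, and they are used below only to show where a PEN-FFW value stands. As the study is known, the cargo of PEN-WT is the stretch of SALL4 that binds RBBP4. PEN-MUT carries that stretch with mutations and serves as its control, and the cargo of PEN-FFW is an engineered one. No untreated library was analysed here, so effects shared by all penetratin peptides cannot be seen.

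SALL4 is a zinc finger protein of embryonic stem cells and fetal liver that is silent in the adult organ and returns in a subset of liver cancers. It recruits the NuRD complex, which joins nucleosome remodelling by CHD proteins to histone deacetylation by HDAC1 and HDAC2, through the histone-binding subunit RBBP4, and genes it binds are thereby repressed. Other pathways named below are the ERK kinase cascade, which switches on short-lived transcription factors such as EGR1 and FOS and then its own inhibitors of the DUSP and SPRY families, and the nucleolar machinery that assembles ribosomes.

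With 1 library per peptide no difference has a replicate check and no test between peptides is possible. Each difference is PEN-FFW minus PEN on the log2 scale, set to 0 at the median tested gene. The value after ± is the standard error from counting reads alone, which does not cover the spread between cultures. In bulk RNA, fewer cells of a kind and less RNA per cell cannot be told apart. Reads in genes above the floor of the deposited values numbered from 27347377 (PEN-FFW) to 40717633 (PEN-WT), with 37784093 in PEN, and the 10 largest genes took 5.37% to 5.72% of them. The liver character of the line was partial in its RNA. GPC3, an oncofetal liver cell-surface protein, had a normalized count of 998 in PEN-FFW and 1249.5 in PEN, and the epithelial gene EPCAM had 701 and 1087. The hepatocyte genes SERPINA1, TTR, APOB, HNF4A and FGB and the keratins KRT8 and KRT18 were at the floor of 5 in all 4 libraries. The mesenchymal gene VIM reached 60313 in PEN-FFW and 82972 in PEN. The endothelial genes VWF, CDH5 and PECAM1, the T cell gene CD3E and the globin HBB were at the floor in all 4 libraries, while the leukocyte genes PTPRC (298 and 331) and CD68 (224 and 259) were counted in both.

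More genes stood higher than lower in PEN-FFW. At 2-fold, 311 genes were higher (2.47% of those tested) and 6 were lower (0.0477%). At 1.5-fold, 978 were higher (7.78%) and 75 lower (0.596%), and past 0.32 on the log2 scale 2190 were higher (17.4%) and 752 lower (5.98%). The 6 genes at least 2-fold lower were DUSP6, EGR1, FOS, DUSP4, RGS16 and PLCL2, of which DUSP6, EGR1, FOS and DUSP4 belong to the ERK cascade's early and feedback genes. By counting error alone, the 95% interval lay wholly past 2-fold for 115 of the higher and 3 of the lower genes. At the same 1.5-fold threshold PEN-MUT against PEN had 41 higher and 60 lower genes, and PEN-WT against PEN had 141 and 54. All these comparisons use the same PEN library.

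These counts depend on where 0 is set. In the values as deposited, the median tested gene of PEN-FFW was itself 0.28 below PEN, whereas that of PEN-MUT and PEN-WT lay within 0.031 of it. Without centring, 131 genes were at least 2-fold higher and 28 lower, 446 at least 1.5-fold higher and 845 lower, and 939 past 0.32 higher and 5322 lower. Every centred PEN-FFW difference given below would then be lower by 0.28, while those of PEN-MUT and PEN-WT would be higher by 0.022 and 0.031. Values relative to genes of like GC content or abundance would not change. A list whose centred PEN-FFW median lies between 0 and 0.28 would fall below 0.

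The spread of the differences was lopsided: 5% of genes lay below -0.34 and 5% above 0.73, with a median counting error of 0.060. The direction followed how strongly a gene was counted. Genes with a mean of 50 to under 500 had a median difference of 0.18, and 757 of these 3817 were at least 1.5-fold higher (19.8%). Those from 500 to under 5000 had a median of -0.03 and 2.84% at least 1.5-fold higher, and those of 5000 and over a median of -0.13 and 0.701%. Differences at the lower edge were mixed on both sides. PCDHB9 (difference 0.11), ETS1 (-0.65) and LRRTM3 (0.91) fell just inside the limit, and ARHGDIG (-0.30), STARD13 (0.84) and SFRP4 (0.19) just outside. The filter itself favours genes high in PEN-FFW. Of all tested genes, 73 reached the limit only with PEN-FFW in the mean, and 67 of them were at least 1.5-fold higher. The number of higher genes thus follows in part from the choice of genes.

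**Figure D1:**
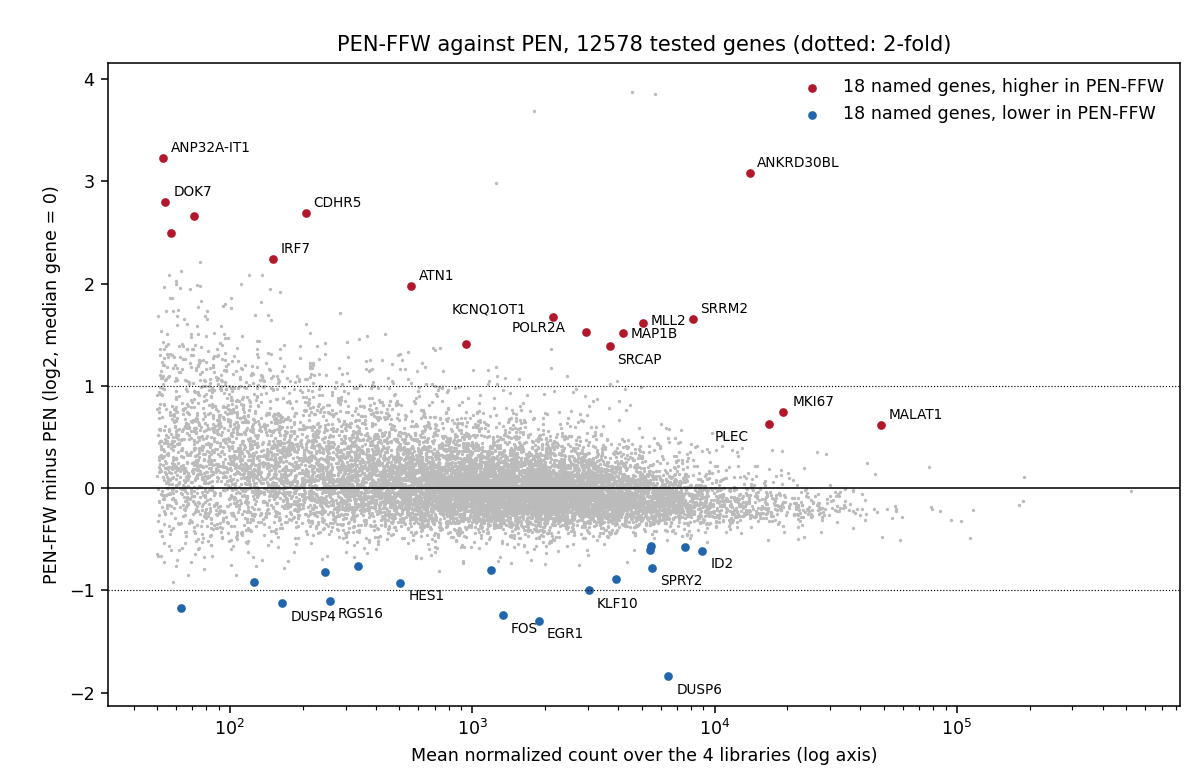
Each grey point is 1 of the 12578 tested genes, with its mean normalized count over the 4 libraries on a log axis and its centred log2 difference between PEN-FFW and PEN. Red and blue points are the 18 higher and 18 lower genes named by the rule of size, from ANP32A-IT1 at 3.23 to DUSP6 at -1.84, and dotted lines mark 2-fold.

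SALL4 itself had a normalized count of 1168 in PEN-FFW, 1291 in PEN-WT, 1359 in PEN-MUT and 1665 in PEN. It was lower in every peptide library than in PEN, with a PEN-FFW difference of -0.24 ± 0.05. RBBP4, the NuRD subunit that SALL4 binds, had 5241, 6875, 7082 and 6773 in the same order, a difference of -0.09 ± 0.02 from PEN, or 0.0070 relative to genes of like abundance. Of 15 tested NuRD subunits, 10 lay below the median gene and 5 above, with a median of -0.05 that turned to 0.03 relative to genes of like abundance and to 0.0031 with scaling by total reads. The deacetylase HDAC1 was the lowest (5598 in PEN and 3917 in PEN-FFW, -0.24 ± 0.03). GATAD2B, which bridges the deacetylase and remodelling modules of the complex, was the highest at 0.78 ± 0.09, with 533 in PEN-FFW, 526 in PEN-WT, 349 in PEN-MUT and 376 in PEN. It is the only subunit at least 1.5-fold away, followed by the remodeller CHD5 at 0.49 ± 0.05. Among the SALL relatives, SALL3 (0.45 ± 0.09) and SALL2 (0.41 ± 0.06) stood above the median gene and SALL1 near it (0.05 ± 0.07).

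Genes of the ERK cascade made up 4 of the 6 genes at least 2-fold lower, and 15 of the 75 at least 1.5-fold lower. Of 35 tested early-response and feedback genes, 27 lay below the median gene and 15 were at least 1.5-fold lower, against 0.596% of all tested genes, and the list's median was -0.39. DUSP6, the phosphatase that switches off ERK, had a normalized count of 3005 in PEN-FFW, 3977 in PEN-WT, 5774 in PEN-MUT and 13038 in PEN. PEN was the highest library by far and PEN-FFW the lowest, a difference of -1.84 ± 0.03. EGR1, a zinc finger factor induced within minutes by growth factors, had 1252 in PEN-FFW, 1437 in PEN-WT, 1153 in PEN-MUT and 3726 in PEN. Here PEN-FFW was not the lowest: its difference from PEN was -1.30 ± 0.04 and that of PEN-MUT was -1.71. DUSP6 lies on chromosome 12 (89741012 to 89746278, minus strand) and EGR1 on chromosome 5 (137801168 to 137804992, plus strand, GRCh37).

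The 250 bases before the start of both genes are shown because these were the 2 lowest genes of all tested. The CArG box, the core of the serum response element through which ERK signalling acts with the factor SRF, is in capitals. The windows come from RefSeq on GRCh38.p14, chr5:138465229-138465478 on the plus strand for EGR1 and chr12:89352502-89352751 on the minus strand for DUSP6.
EGR1: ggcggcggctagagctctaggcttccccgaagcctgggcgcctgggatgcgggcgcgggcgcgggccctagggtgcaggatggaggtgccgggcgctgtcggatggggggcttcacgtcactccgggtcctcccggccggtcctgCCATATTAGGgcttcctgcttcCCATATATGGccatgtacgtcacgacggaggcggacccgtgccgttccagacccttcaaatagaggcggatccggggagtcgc
DUSP6: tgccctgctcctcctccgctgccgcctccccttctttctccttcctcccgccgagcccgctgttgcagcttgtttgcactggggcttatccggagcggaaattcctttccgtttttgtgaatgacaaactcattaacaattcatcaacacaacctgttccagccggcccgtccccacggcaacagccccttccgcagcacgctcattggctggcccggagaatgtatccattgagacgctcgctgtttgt
EGR1 has 2 CArG boxes in this window and DUSP6 has none, which says only that these letters are absent from this stretch. Of all 27305 listed promoters 1.29% hold the box within 300 bases, as do 1.01% of the 9927 tested genes that have a promoter listed.

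The AP-1 gene FOS had 739 in PEN-FFW, 1184 in PEN-WT, 1317 in PEN-MUT and 2117 in PEN, so that PEN was highest and PEN-FFW lowest (-1.24 ± 0.06). DUSP4, a nuclear phosphatase of ERK, had 88.6, 159.9, 176 and 234 in that order (-1.13 ± 0.17). The inhibitor SPRY2 stood at -0.78 ± 0.03 (3789 in PEN-FFW, 4522 in PEN-WT, 5905 in PEN-MUT and 7882 in PEN) and the related SPRED1 at -0.56 ± 0.03. RGS16, a brake on G protein signalling that is not in the list, had 159.7 in PEN-FFW, 208 in PEN-WT, 249 in PEN-MUT and 415 in PEN (-1.10 ± 0.13). Again PEN was the highest library and PEN-FFW the lowest. Over the 35 genes the median difference from PEN was -0.35 for PEN-MUT and -0.51 for PEN-WT. All 3 comparisons share the PEN library, so a high value in PEN alone would lower all of them, and with 1 library of it this cannot be told apart from an effect of the peptides.

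Some genes of the same list went the other way in PEN-FFW. NR4A3, an orphan nuclear receptor of the early response, had 375 in PEN-FFW, 268 in PEN-WT, 178 in PEN-MUT and 169.6 in PEN (1.42 ± 0.12). NR4A1 had 1510.3, 1338, 1123 and 1177 in the same order (0.64 ± 0.05). These were the only list members at least 1.5-fold higher. JUN, the AP-1 partner of FOS, reached 411 in PEN-FFW and 348 in PEN (0.51 ± 0.10) but was highest in PEN-WT, at 679.

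KLF10, a zinc finger gene of the same list that TGF-beta also induces, had 1910.1 in PEN-FFW, 2724 in PEN-WT, 2870 in PEN-MUT and 4618 in PEN (-1.0 ± 0.04). The other genes among the lowest named here are not in that list. ID2, an inhibitor of helix-loop-helix factors, stood at -0.61 ± 0.02 and HES1, a Notch effector, at -0.93 ± 0.09. PLCL2, a phospholipase C-like protein without the enzyme activity, differed from these in its pattern. It had 73.1 in PEN, 71 in PEN-MUT and 80.0 in PEN-WT, and was low only in PEN-FFW at 26.8 (-1.17 ± 0.31). SERPINE2, a protease inhibitor, had 72.0, 113, 151 and 165 in the usual order (-0.92 ± 0.19), and TFPI2, another secreted inhibitor, stood at -0.82 ± 0.13. CMTM7, a membrane protein of the chemokine-like family, stood at -0.76 ± 0.11, the proapoptotic MOAP1 at -0.81 ± 0.06, the sialomucin CD164 at -0.58 ± 0.02 and DCAF13, which acts in ribosome assembly, at -0.61 ± 0.03. NBEAP1, a pseudogene whose reads may be shared with its parent gene, stood at -0.89 ± 0.03.

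**Figure D2:**
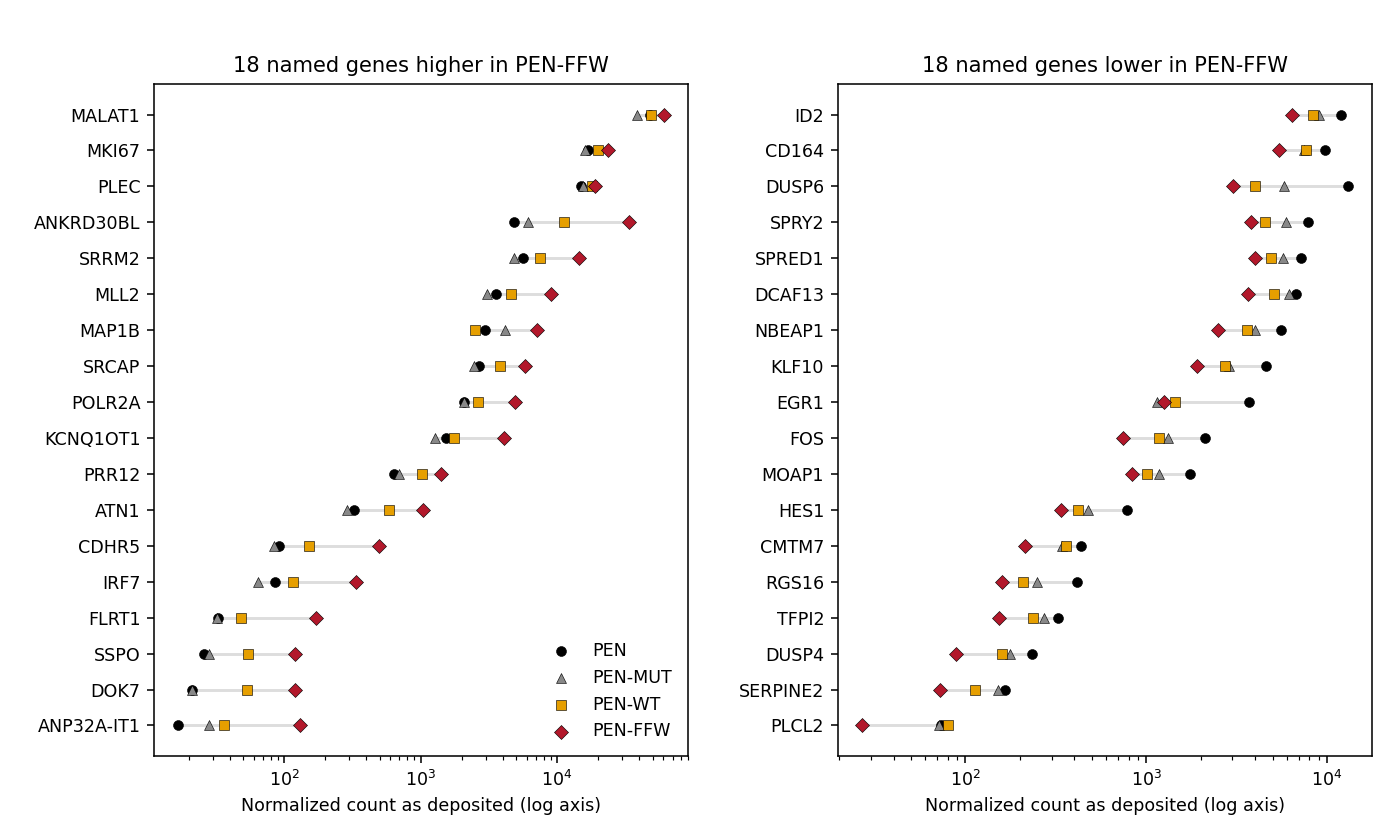
Normalized counts as deposited, on a log axis, of the 18 higher (left) and 18 lower (right) named genes in each of the 4 libraries, 1 symbol per library. PEN-FFW is the outermost library for every higher gene, up to 33678 for ANKRD30BL against 4822 in PEN, while for EGR1 the lowest library is PEN-MUT at 1153.

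Genes that build ribosomes stood lower together. All 28 tested ribosome biogenesis factors lay below the median gene, 21 of them by 0.32 or more, as 5.98% of all tested genes were, and their median was -0.41. NOP16, a nucleolar protein, had 1284 in PEN-FFW, 1646 in PEN-WT, 1874 in PEN-MUT and 2357 in PEN. PEN was the highest library and PEN-FFW the lowest (-0.60 ± 0.05). RRS1, which acts in the large subunit, stood at -0.55 ± 0.05. NPM1, the abundant nucleolar chaperone, stood at -0.21 ± 0.01, and POLR1A, the largest subunit of RNA polymerase I, came closest to the median gene at -0.06 ± 0.02. MYC, the transcription factor known for driving this programme, had 3054 in PEN-FFW, 3878 in PEN-WT, 4363 in PEN-MUT and 6109 in PEN (-0.72 ± 0.03). Its partner MAX stood at -0.44 ± 0.06, while 8 of the 11 tested members of that network lay above the median gene, led by MLXIP, a glucose-responsive factor (0.65 ± 0.06), and MNT, which opposes MYC (0.58 ± 0.09). The biogenesis list was also below 0 in the other peptide libraries, with a median of -0.24 in PEN-MUT and -0.31 in PEN-WT against the same PEN library.

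Ribosomal proteins themselves lay closer to the median gene. All 74 tested cytosolic ribosomal proteins were below it, from RPS10 at -0.49 ± 0.15 to RPL13 at -0.03 ± 0.01, with a median of -0.20 and 3 lower by 0.32 or more. Their list was at 0.04 in PEN-MUT and -0.10 in PEN-WT. Translation initiation factors (26 of 27 below, median -0.22), proteasome subunits (31 of 31, -0.24), mitochondrial ribosomal proteins (71 of 75, -0.20) and nuclear-encoded respiratory chain subunits (65 of 71, -0.15) stood much the same. Clustered histone genes, whose proteins package newly copied DNA in S phase, lay at -0.18 in PEN-FFW with 50 of 52 below, against 0.13 in PEN-MUT and 0.06 in PEN-WT. Most of these genes are strongly counted, and strongly counted genes stood lower in general. Relative to genes of like abundance the medians were -0.04 for cytosolic ribosomal proteins, -0.08 for initiation factors, -0.14 for proteasome subunits and -0.09 for histones. They were -0.32 for ribosome biogenesis and -0.56 for the ERK genes. Set against genes of like GC content instead, the histone median was -0.29, with 1 of 47 above 0. The part of abundance in these results was not tested further.

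Cytosolic chaperones, which fold new proteins and are induced by heat shock, lay at a median of -0.28, with 24 of 26 below the median gene and 7 lower by 0.32 or more. Relative to genes of like abundance that median was -0.15. HSPA8, the constitutive HSP70, had 80502 in PEN-FFW, 105362 in PEN-WT, 132065 in PEN-MUT and 136375 in PEN. PEN and PEN-MUT were close, PEN-WT lower and PEN-FFW lowest (-0.48 ± 0.01). The list and its counts also include the mitochondrial chaperone HSPD1 (-0.31) and its co-chaperone HSPE1 (-0.49 ± 0.04). HSP90AA1 stood at -0.33 ± 0.01, while HSF1, the factor that drives heat shock genes, stood at 0.03 ± 0.03. The 250 bases before the HSPA8 start (RefSeq, GRCh38.p14, chr11:123062137-123062386, minus strand) are shown with the paired heat shock element unit GAANNTTC in capitals, a motif that this list carries in a larger share of members than of tested genes as a whole.
HSPA8: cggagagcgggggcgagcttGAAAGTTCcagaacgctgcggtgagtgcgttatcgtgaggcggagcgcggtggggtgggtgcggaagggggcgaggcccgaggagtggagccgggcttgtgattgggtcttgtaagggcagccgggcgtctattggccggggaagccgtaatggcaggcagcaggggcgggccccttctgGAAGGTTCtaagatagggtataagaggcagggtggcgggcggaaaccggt
The window holds 2 matches. Of the 24 chaperone genes with a listed promoter, 8 hold the motif on either strand within 300 bases (33.3%), against 4.37% of tested genes and 6.87% of all promoters. Differences of the genes with the motif ran from HSPA8 (-0.48) to DNAJB6 (0.02), and of those without it from HSPE1 (-0.49) to BAG3 (-0.06). A match is a run of letters and not a site in use.

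**Figure D3:**
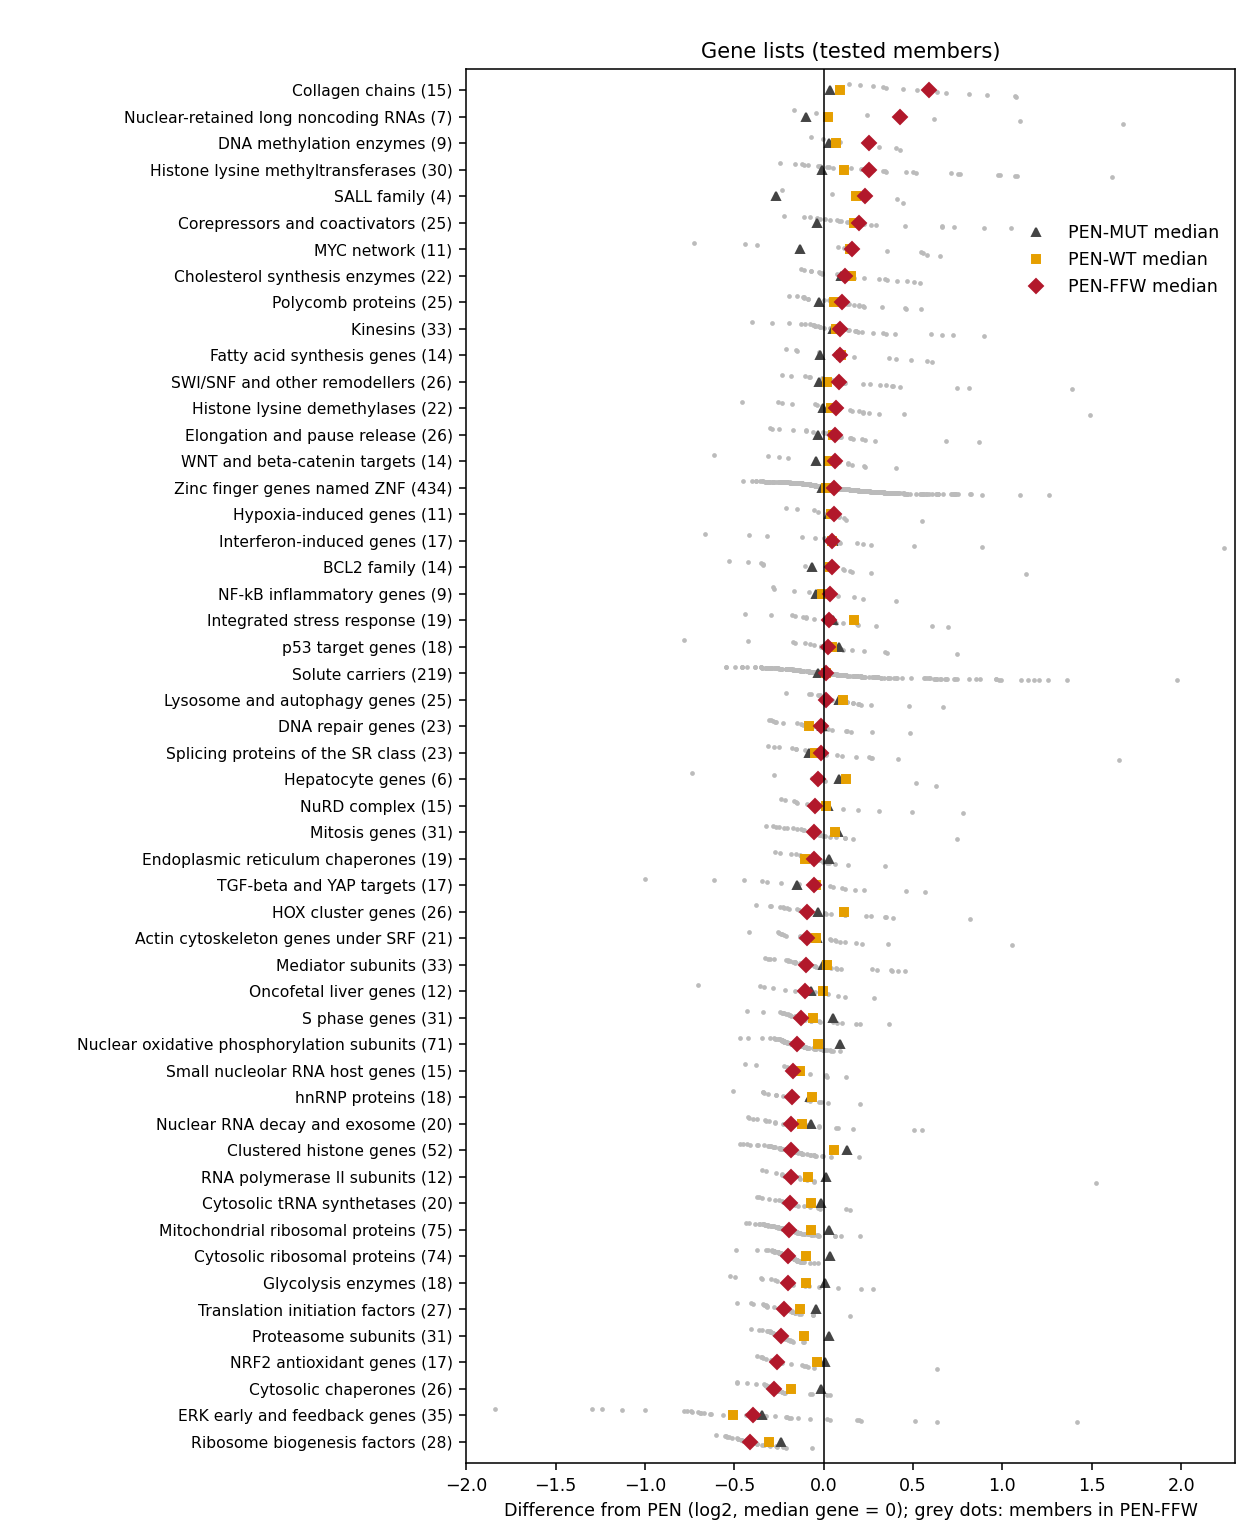
The centred log2 difference from PEN for 52 gene lists, with the number of tested members in brackets, where grey dots are members in PEN-FFW and symbols are the list medians of the 3 peptide libraries. The PEN-FFW medians run from -0.41 for ribosome biogenesis factors to 0.59 for collagen chains.

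On the higher side, most of the largest differences among genes named by rule belonged to genes with few reads in PEN. ANKRD30BL was the exception, a gene with ankyrin repeats that spans 132905164 to 133015542 on the minus strand of chromosome 2 (GRCh37). It had a normalized count of 33678 in PEN-FFW, 11185 in PEN-WT, 6088 in PEN-MUT and 4822 in PEN, a difference of 3.08 ± 0.02. PEN-FFW stood far above the other libraries and PEN-WT second. The rule for naming genes left out microRNA and LOC names, and 4 of those were as high, named here after their values were seen: LOC284801 (3.87 ± 0.04), MIR3648 (3.85 ± 0.04), MIR3687 (3.69 ± 0.07) and MIR663A (2.98 ± 0.07). MIR3648 had 11605 in PEN-FFW, 8328 in PEN-WT, 1855 in PEN-MUT and 972 in PEN. Reads counted at these loci are no measure of the mature microRNAs. MIR3648 and MIR3687 lie within 192 bases of each other on chromosome 21 and share sequence with ribosomal DNA. Of the 31-base words of MIR3648, 61.3%, and of those of MIR3687, 12.9%, also occur on the unplaced scaffold GL000220.1 of GRCh37, which carries ribosomal RNA genes, and none of those of IRF7, CDHR5, ATN1, EGR1 or DUSP6. ANKRD30BL has 0.404% of its exon words there but its span also holds MIR663B, with 11.8%, and MIR663AHG, the host gene of MIR663A, has 2.43%. LOC284801 was not searched under that name, so shared sequence is not known to be absent from it. The values of LOC284801, MIR3648, MIR3687, MIR663A and ANKRD30BL are therefore uncertain, and the part of ribosomal sequence in them was not tested. For MIR663A, RefSeq gives this mature product on chr20:26208243-26208264 (GRCh38.p14, minus strand), with its seed in capitals.
hsa-miR-663a: aGGCGGGGcgccgcgggaccgc

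CDHR5, a cadherin that links microvilli in the gut, had 492 in PEN-FFW, 153 in PEN-WT, 85 in PEN-MUT and 92.4 in PEN (2.69 ± 0.15). IRF7, the regulator of type I interferon genes, had 338, 116, 64 and 86.5 in the same order (2.24 ± 0.16). PEN-FFW was clearly the highest library for both. They are neighbours on the minus strand of chromosome 11 (GRCh37), IRF7 from 612553 to 615983 and CDHR5 from 616577 to 626078. On that strand CDHR5 lies upstream, with 594 bases between the genes. Since both are read from the same strand, reads running on from CDHR5 into IRF7 cannot be told apart, whatever the strand setting. The interferon list as a whole lay at 0.05, with 12 of 17 above the median gene. Its other members at least 1.5-fold away were IFIT1 (0.89 ± 0.22), an RNA-binding antiviral protein and IFIT5 (-0.66 ± 0.14).

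The other 4 genes named by rule in the weakest class passed the limit of 50 only through PEN-FFW, since their means over the other 3 libraries were 27.1 to 37.6, so their being high there follows in part from the choice of genes. Of all tested genes, 73 passed in this way, and 52 of them are among the 311 at least 2-fold higher. DOK7, an adaptor of the neuromuscular junction, had 121 in PEN-FFW, 53.6 in PEN-WT, 21 in PEN-MUT and 21.0 in PEN (2.80 ± 0.31). FLRT1, a cell adhesion protein, had 171, 48.1, 32 and 32.7 (2.66 ± 0.25). SSPO, annotated as a pseudogene in human, stood at 2.49 ± 0.29. The intronic transcript ANP32A-IT1 rested on 20 reads in PEN and stood at 3.23 ± 0.34. PEN-FFW was the highest and PEN-WT the second library for each of the 4.

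Among the 12 higher genes named by rule with a mean of at least 500, ATN1, SRCAP, MLL2 and POLR2A regulate chromatin or transcription. Of 221 tested genes of the 10 lists for histone methylation and demethylation, remodelling, coregulators, Polycomb, DNA methylation, NuRD, RNA polymerase II, Mediator and elongation, 23 were at least 1.5-fold higher (10.4%) and none lower, against 7.78% and 0.596% of all tested genes. The share of higher members was thus near that of all genes, and the median of the 221 was 0.06. Their median normalized count was 2328, however. Of all tested genes with a mean of 500 to under 5000, 2.84% were at least 1.5-fold higher, a smaller share than that of the 221. Not all of the 221 fall in that class, and the part of abundance was not tested. By role, 8 of 30 histone lysine methyltransferases were at least 1.5-fold higher (median 0.25, or -0.02 without centring), 7 of 25 coregulators (0.20, or -0.08), 3 of 26 remodellers (0.09, or -0.19), 1 of 22 demethylases (0.07) and 0 of 25 Polycomb proteins (0.10).

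ATN1, a corepressor whose glutamine repeat is expanded in a neurodegenerative disease, had 1047 in PEN-FFW, 585 in PEN-WT, 290 in PEN-MUT and 322 in PEN (1.97 ± 0.09). Its relative RERE stood at 1.05 ± 0.05. BCORL1, a corepressor on chromosome X, had 661, 505, 297 and 281 (1.51 ± 0.10). PEN-FFW was the highest library and PEN-WT the second for all of these. Among the methyltransferases of histone H3 lysine 4, the gene listed as MLL2 had 8994 in PEN-FFW, 4606 in PEN-WT, 3077 in PEN-MUT and 3559 in PEN (1.61 ± 0.03). SETD1B stood at 1.07 ± 0.05, MLL at 0.99 ± 0.03 and MLL3 at 0.76 ± 0.03. The symbol MLL2 has been used for more than 1 gene of this family, and no position is given for it. KDM6B, which removes the Polycomb mark, had 633, 356, 212 and 273 (1.49 ± 0.10). SRCAP, the remodeller that deposits histone H2A.Z, had 5817 in PEN-FFW, 3782 in PEN-WT, 2472 in PEN-MUT and 2689.7 in PEN (1.39 ± 0.03), and ARID1A of the SWI/SNF complex stood at 0.81 ± 0.03.

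POLR2A, the catalytic subunit of RNA polymerase II, stood apart from the rest of its complex. It had 4950.1 in PEN-FFW, 2621 in PEN-WT, 2089 in PEN-MUT and 2082 in PEN, close in PEN and PEN-MUT and highest in PEN-FFW (1.53 ± 0.04). The other 11 subunits tested all lay below the median gene, down to POLR2H at -0.34 ± 0.05. Among splicing proteins SRRM2, a large scaffold of nuclear speckles, had 14525 in PEN-FFW, 7508 in PEN-WT, 4822 in PEN-MUT and 5600.2 in PEN (1.65 ± 0.02), while the list of 23 had 11 members above the median gene and 12 below and SRSF7 stood at -0.28 ± 0.02. POLR2A spans 7387685 to 7417933 on the plus strand of chromosome 17 (GRCh37). Its promoter window is shown as that of the complex member that differed (RefSeq, GRCh38.p14, chr17:7484116-7484365, plus strand), with the GC box GGGCGG in capitals.
POLR2A: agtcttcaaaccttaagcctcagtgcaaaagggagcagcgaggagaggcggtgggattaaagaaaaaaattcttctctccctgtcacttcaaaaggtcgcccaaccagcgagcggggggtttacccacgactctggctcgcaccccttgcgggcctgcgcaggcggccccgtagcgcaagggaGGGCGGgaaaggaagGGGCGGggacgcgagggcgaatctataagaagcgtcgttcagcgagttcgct
The window holds 2 GC boxes, a motif present in 71.5% of tested genes with a promoter and in 44.6% of all promoters, so most tested genes share it.

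The higher chromatin genes tended to be long. The 23 at least 1.5-fold higher had a median transcript length of 8009 bases and 56.6% GC, against 4760.5 bases and 49.5% for the other 198. When the genes with a known length were split by it into 3 groups, the median difference was -0.08 for the 73 shortest, 0.06 for the 74 in the middle and 0.26 for the 72 longest. The share at least 1.5-fold higher was 2.74%, 4.05% and 22.2%.

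**Figure D4:**
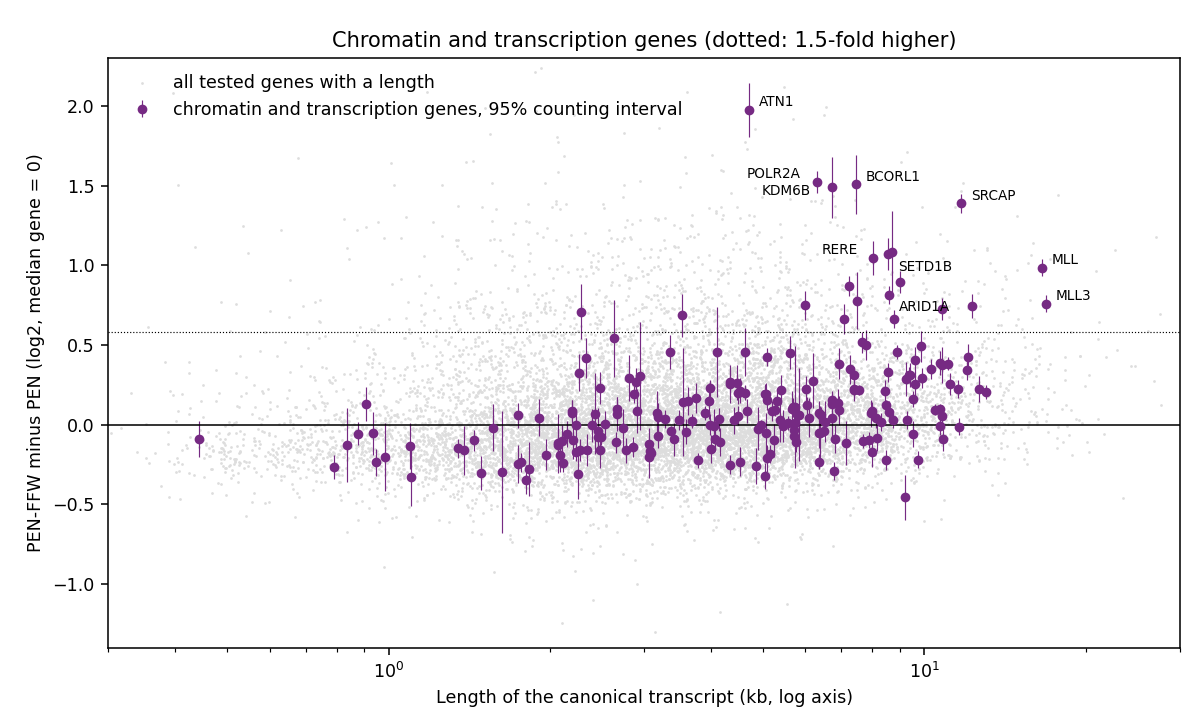
Centred log2 difference between PEN-FFW and PEN against the length of the canonical transcript (log axis) for chromatin and transcription genes (purple, with 95% counting intervals) and all tested genes with a known length (grey). Members above the dotted 1.5-fold line lie mostly on the right, such as SRCAP at 1.39 and MLL at 0.99.

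Collagens also stood higher. All 15 tested collagen chains lay above the median gene, 12 by 0.32 or more and 8 by at least 1.5-fold, against 17.4% and 7.78% of all tested genes, and the median was 0.59. COL7A1, the anchoring fibril collagen of skin, had 779 in PEN-FFW, 539 in PEN-WT, 402 in PEN-MUT and 449 in PEN (1.07 ± 0.08). COL1A1 had 221, 182, 156 and 127 (1.08 ± 0.15). PEN-FFW was highest for both. COL3A1, the fibrillar chain with 72895 counts in PEN-FFW and 76546 in PEN, stood at 0.21 ± 0.01 and COL12A1 was the lowest at 0.14 ± 0.04. The medians of the list were 0.04 in PEN-MUT and 0.09 in PEN-WT. Collagen transcripts are rich in GC (median 61.3%), and set against genes of like GC content the list's median was 0.39 with all 15 still above 0. Of 7 long noncoding RNAs kept in the nucleus, 5 lay above the median gene and 2 below, JPX (-0.04 ± 0.16) and OIP5-AS1 (-0.17 ± 0.04), and 3 were at least 1.5-fold higher. KCNQ1OT1, the antisense RNA of an imprinted cluster, had 4047 in PEN-FFW, 1766 in PEN-WT, 1284 in PEN-MUT and 1538 in PEN (1.67 ± 0.04). NEAT1, the paraspeckle scaffold, stood at 1.10 ± 0.05 and MALAT1, a speckle RNA, at 0.62 ± 0.01. Without known strand, reads of KCNQ1OT1 cannot be told from intron reads of the gene it overlaps.

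A few of the named higher genes belong to no list. MAP1B, a microtubule protein of neurons, had 7063 in PEN-FFW, 2509.6 in PEN-WT, 4169 in PEN-MUT and 2982 in PEN (1.52 ± 0.03). It was the only 1 of the 18 named higher genes in which PEN-WT stood lowest. PRR12, a proline-rich nuclear protein, had 1407, 1032, 700 and 642 in the same order (1.41 ± 0.06). MKI67, the proliferation marker that coats mitotic chromosomes, had 23484 in PEN-FFW and 16940.1 in PEN (0.75 ± 0.01). The mitosis list of 31 genes lay at -0.05 with 24 below the median gene, or at 0.04 relative to genes of like abundance. PLEC, a giant linker of the cytoskeleton, stood at 0.63 ± 0.01.

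The direction of a gene went with its base composition and length across all genes. Over the 12086 genes with both known, the rank correlation of the difference across genes was 0.36 with the GC content of the transcript, 0.20 with its length and -0.35 with the mean count. These genes share 2 libraries and are not independent. Genes were split into 4 equal groups by GC content and 4 by length. The median difference was -0.17 for short transcripts of low GC and 0.45 for long transcripts of high GC, of which 36.5% were at least 1.5-fold higher and 0% lower. In that same long and GC-rich group the median was 0.19 for PEN-WT and -0.0021 for PEN-MUT against PEN. The higher chromatin genes were long and rich in GC, and the collagens were rich in GC, as given above. Among the chromatin genes as a whole, the longest group had a median GC content of 45.1%, against 52.6% for the shortest and 52.3% for the middle group. Composition and length were not compared between weakly and strongly counted genes. The part of composition and length in the results above was not tested beyond the values given. Set against genes of like GC content, the ERK list stood at -0.43, ribosome biogenesis at -0.40, methyltransferases at 0.22 and coregulators at 0.15.

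**Figure D5:**
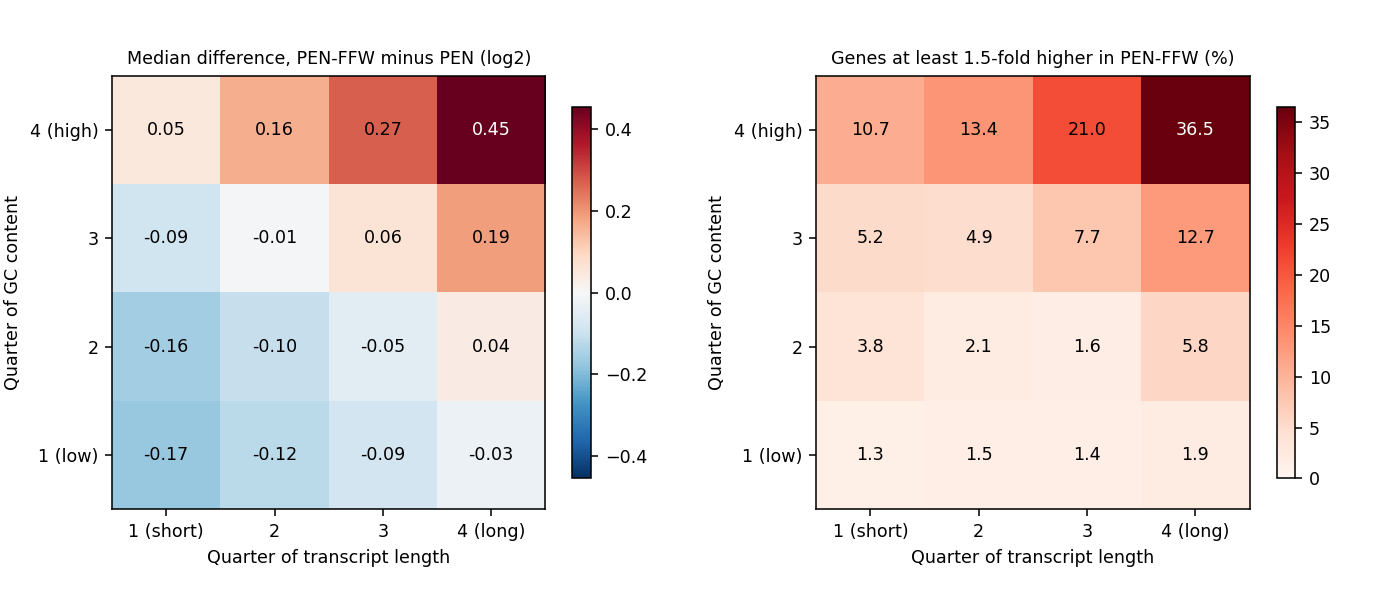
Tested genes in 4 equal groups of transcript GC content (vertical) and 4 of transcript length (horizontal), with the median centred log2 difference between PEN-FFW and PEN on the left and the percentage of genes at least 1.5-fold higher in PEN-FFW on the right. Both rise towards long, GC-rich transcripts, from -0.17 to 0.45 and up to 36.5%.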

How the data were processed

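Total RNA was extracted with Trizol, per the labels. The submitters' processing notes name STAR 2.4.0i, featureCounts 1.5.0-p1 and the build hg19. Which annotation, strand setting and normalization were used is not given in the sources here. The authors deposited log2 values per gene and library. In every column, 2 to the power of the value was a whole multiple of 1 step, within 0.1 read, for 100% of values above a floor of 5, so the deposited log2 values are reads times a factor per library (0.923 in PEN-FFW, 0.776 in PEN-WT, 1 in PEN-MUT and 0.840 in PEN). Reads behind each value follow by division, and no tested gene was at the floor in any library.

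The difference is the deposited log2 value of PEN-FFW minus that of PEN, with no pseudocount, centred on the median of the 12578 tested genes. Counting errors are those of the Poisson law (95% intervals) and cover counting error only. Their calculation was checked on reads simulated under that same law, which cannot show whether the deposited reads follow it. Sequenced fragments are not independent molecules. A fold count is a description, since 1 library per peptide allows no p-value. The members, the 52 gene lists and the naming rule were chosen with earlier results of these data known, and nothing is supported by a list's choice. Genes were named by rule: in each of 3 abundance classes the 6 with the highest lower bound and the 6 with the lowest upper bound, leaving out small RNA, LOC and clone names, the 2 highest and 2 lowest members of each list, and SALL4 and RBBP4. Further list members are given as examples chosen after their values were seen.

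Positions, GC content and length were taken from the GRCh37 lift of GENCODE 44, where 20574 listed genes have their symbol, 1500 more were found through an older symbol and 1636 were not found. It may differ from the annotation the authors counted with. Promoters (250 bases before to 50 after the start) and the microRNA came from RefSeq on GRCh38.p14. They were searched on both strands, with no mismatch, for GAANNTTC, GGGCGG and the CArG box, whose matches may overlap, and for other common motifs (among them the E-box, AP-1, CRE, ETS, CCAAT and TATA motifs) whose shares are not used here. Fewer than 80% of the tested genes, and of the ERK and ribosome biogenesis lists, had a promoter in that table, so motif shares are compared for the chaperone list only. Python 3.11.15, numpy 2.4.6, pandas 2.3.3, scipy 1.17.1 and matplotlib 3.10.9 were used. Alternatives in centring, log scale and filter were run. Chromatin immunoprecipitation samples of the series were not used.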

Additional observations from a re-analysis of the deposited data

How the results depend on the processing

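No paired analysis was possible because each peptide has 1 library, and for the same reason none could be left out. Without centring the counts of higher and lower genes were 939 and 5322 past 0.32 on the log2 scale, 446 and 845 at 1.5-fold and 131 and 28 at 2-fold, and 22 of the 24 list medians above 0 turned below it, all but collagens and nuclear RNAs, among them SWI/SNF and other remodellers (-0.19), corepressors and coactivators (-0.080) and DNA methylation enzymes (-0.021). Scaling by total reads gave 441 genes lower by 0.32 or more, and centring on genes of at least 500 gave 488. Set against genes of like GC content, 196 genes were at least 2-fold higher. Relative to genes of like abundance 196 were at least 1.5-fold lower, 169 at least 2-fold higher and 19 at least 2-fold lower, and the median of mitosis genes (0.043) and the value of RBBP4 (0.0070) turned above 0. With no filter, 16019 genes entered (those at the floor in both libraries left out), and the counts of higher and lower genes were 4015 and 1535 past 0.32, 2412 and 253 at 1.5-fold and 1120 and 33 at 2-fold. With a mean of at least 200, 10611 genes entered, and the counts were 1432 and 459 past 0.32, 475 and 36 at 1.5-fold and 104 at least 2-fold higher. The filters change how many genes are counted; for the other settings the cause was not tested. On the scale log2(normalized count + 10), and with the filter applied to PEN-FFW and PEN alone, all 6 counts stayed within 1.5 times those reported. Of the 38 named genes, none but RBBP4 changed sign under the log scale, centring, GC or abundance settings. Depth limits the genes with a mean of 50 to under 500 most, whose median counting error was 0.14 against 0.023 for those of 5000 and over.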

Other observations

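Sterol and lipid genes stood slightly above the median gene. Of 22 enzymes of cholesterol synthesis 14 lay above it, with a median of 0.12 (below 0 without centring), led by MVK (726 in PEN, 872 in PEN-FFW, 0.54 ± 0.07) and LSS (0.50 ± 0.04). The median of these enzymes was much the same in PEN-MUT (0.09) and PEN-WT (0.15) against the same PEN library. SREBF1, which controls fatty acid synthesis, had 3599 in PEN-FFW, 3937 in PEN-WT, 3455 in PEN-MUT and 2863 in PEN (0.61 ± 0.03), so that PEN was the lowest library. In glycolysis, HK2, which traps glucose in the cell, had 1546 in PEN-FFW, 1605 in PEN-WT, 2021 in PEN-MUT and 2693 in PEN (-0.52 ± 0.04), and the glucose transporter SLC2A3 stood at -0.50 ± 0.04. TDO2, which starts tryptophan breakdown in liver, had 916, 1362, 1666 and 1846 in the same order (-0.74 ± 0.06).

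Genes of cell death and arrest were mixed. MCL1, a short-lived survival protein, had 9691 in PEN and 5979 in PEN-FFW (-0.42 ± 0.02), and BMF, a death-promoting relative, had 47.9 and 86.8 (1.13 ± 0.24). BMF was also above PEN in PEN-MUT (96) and PEN-WT (113). CDKN1A, the p53-induced inhibitor of the cell cycle, had 231 in PEN and 111 in PEN-FFW (-0.78 ± 0.16), and TP53INP1, another p53 target, had 749.9 and 1037 (0.74 ± 0.06).

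Long noncoding genes by annotation had a median of 0.20, and 19.9% of the 272 tested were at least 1.5-fold higher, against 7.78% of all tested genes. They are weakly counted, with a median of 167, and 19.8% of all genes with a mean of 50 to under 500 were as much higher, so this share is not particular to them. Small nucleolar RNAs had a median of -0.04 in PEN-FFW over 102 genes and of -0.22 in both other peptide libraries. By chromosome the median ran from -0.07 on chromosome 4 to 0.12 on chromosome 22, whose tested genes have a median GC content of 42.0% and 56.3%. Tested genes were also paired with the next tested gene along the chromosome, so that a gene may enter more than 1 pair. Of partners within 10 kb of a gene at least 1.5-fold higher, 13.3% were themselves so, against 8.97% of all pair members at that distance. The GC content and abundance of neighbours were not taken into account. Beyond 10 kb the shares were 9.23% and 5.97%. For divergent pairs they were 16.3% and 6.39% within that distance and 13.5% and 5.67% beyond it. These are descriptions of 1 pair of libraries.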
